A study of Rattus norvegicus with 9 samples.

Results

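The genes described here encode enzymes of the tricarboxylic acid (TCA) cycle, measured by bulk RNA-seq in rat liver. The members were the rows whose gene symbol is Cs, Idh2, Idh3a, Idh3g, Ogdh, Dlst, Suclg1, Suclg2 or Mdh2. Of these 9 symbols, 8 name a row among 32883 genes, and all 8 passed the filter on low counts that left 14089 genes for the test. No row carries the symbol Ogdh, but the row LOC103693780 has the Entrez identifier of Ogdh and is annotated as 2-oxoglutarate dehydrogenase E1. Its values are given beside the 8 members, under the name Ogdh, and are counted in none of the counts over the 8.

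The livers came from 3 groups of 3 male Sprague-Dawley rats, 8 to 11 weeks old when obtained. The normal group had no ACLF and no circuit. The other 2 groups had acute-on-chronic liver failure (ACLF), set off by a dose of 0.25 mg/kg lipopolysaccharide (LPS) in rats whose bile duct had been ligated 21 days before. From 1 h after LPS, their blood ran for 2 h through an extracorporeal circuit, and livers were taken 24 h after LPS. In the empty group the circuit held neither cells nor apheresis beads. In the UTOpiA group it held a granulocyte and monocyte apheresis column and alginate-encapsulated hepatocyte-like cells made from genome-edited human induced pluripotent stem cells. Livers were taken from rats alive at that time, so both ACLF groups are survivors, and no group had ligation without LPS or a circuit without ACLF.

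The TCA cycle runs in the mitochondrial matrix and oxidises the acetyl groups of acetyl-CoA to carbon dioxide, passing electrons to the respiratory chain as NADH and reduced flavin. Citrate synthase (Cs) joins acetyl-CoA to oxaloacetate, isocitrate dehydrogenases (the NAD-dependent Idh3 complex and the NADP-dependent Idh2) make 2-oxoglutarate, and the oxoglutarate dehydrogenase complex (Ogdh, Dlst, Dld) makes succinyl-CoA. Succinyl-CoA ligase then forms succinate from a shared subunit, Suclg1, paired with either the GTP-forming Suclg2 or the ATP-forming Sucla2, and malate dehydrogenase 2 (Mdh2) regenerates oxaloacetate. In liver the cycle also feeds and drains gluconeogenesis, fatty acid synthesis, amino acid breakdown and the urea cycle.

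The promoters of Mdh2, Dlst and Suclg1, the 3 members that fell more than 2-fold in the empty group, are shown because they bear on whether members that moved together also look alike at their start sites. The sequences are from RefSeq, build GRCr8, and run 250 bases up to the start of the gene, 5′ to 3′ on the gene's strand. They lie at chr12:26543842-26544091 (− strand) for Mdh2, chr6:110489456-110489705 (+ strand) for Dlst and chr4:106866079-106866328 (+ strand) for Suclg1. Capitals mark matches to the ETS motif CCGGAAGT and to TCGCGAGA, in either orientation. Neither the Suclg1 nor the Ogdh promoter has a match to these.
Mdh2: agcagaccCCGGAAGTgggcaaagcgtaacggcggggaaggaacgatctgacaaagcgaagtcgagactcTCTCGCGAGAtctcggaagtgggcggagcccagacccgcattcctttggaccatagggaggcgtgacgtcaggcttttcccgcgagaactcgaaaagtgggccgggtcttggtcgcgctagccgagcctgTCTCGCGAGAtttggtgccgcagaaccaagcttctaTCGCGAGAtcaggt
Dlst: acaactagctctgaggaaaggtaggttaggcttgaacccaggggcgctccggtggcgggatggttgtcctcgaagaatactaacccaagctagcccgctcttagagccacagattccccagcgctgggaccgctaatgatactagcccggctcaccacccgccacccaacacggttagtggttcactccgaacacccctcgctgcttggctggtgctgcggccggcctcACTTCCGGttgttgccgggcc
Suclg1: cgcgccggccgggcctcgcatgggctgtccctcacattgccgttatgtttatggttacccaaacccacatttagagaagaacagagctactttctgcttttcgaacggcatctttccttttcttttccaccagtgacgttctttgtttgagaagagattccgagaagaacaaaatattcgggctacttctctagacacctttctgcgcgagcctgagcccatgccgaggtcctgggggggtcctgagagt

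The ETS motif, of the kind read by the GABP factor of many mitochondrial genes, was found 242 bases before the start of Mdh2 and, on the opposite strand, 21 bases before that of Dlst. The motif TCGCGAGA was added after the Mdh2 sequence had been read, and it occurs there 3 times on the gene's strand, at 178, 48 and 14 bases before the start, with overlapping matches on the other strand at the first 2 places. In the 300 bases from 250 before to 50 after the start, 3.81% of 33469 rat promoters held CCGGAAGT and 0.855% held TCGCGAGA. The same window was searched on both strands for 4 further motifs, TCAAGGTCA for ERR factors, GCATGCGC for the core of the NRF1 site, CAAAGTCCA for HNF4 and TATAAA for the TATA box. These letters were in 0.433%, 2.47%, 0.391% and 14.2% of all promoters and in none of the 8 promoters of the 9 enzymes that could be matched. Those 8 (all but Idh3a) had a median GC content of 62.7% and a median of 22 CpG dinucleotides (range 17 to 29), against 51.7% and 7 over all promoters. That background was not matched to the 8 by expression level. The Idh3g promoter was the other one with TCGCGAGA, from base 8 after the start.

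Sequencing gave 14241172 to 17321677 counts per library. Albumin took 13.3% to 14.9% of all counts in the normal livers and 1.54% to 3.91% in the 6 ACLF livers, so the scale on which libraries are compared matters. The main values are normalised CPM, counts of the genes tested scaled to a common library size after TMM normalisation, which assumes that most genes do not change, and they compare 1 gene between livers. TPM, the length-scaled transcript abundance that the authors deposited, compares genes within a liver. The words rose and fell refer to an adjusted p below 0.05 in edgeR's quasi-likelihood test over all 14089 genes, and the livers of a group are separate samples by their labels.

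Transcripts of 7 of the 8 enzymes fell in the livers of the empty group relative to normal, and the exception was Idh3a, the catalytic subunit of the NAD-dependent isocitrate dehydrogenase. Of all genes tested, 21.5% fell. Mdh2, Dlst and Suclg1 fell more than 2-fold (11.1% of all genes did). With UTOpiA, 6 of the 8 fell relative to normal (16.2% of all genes did), and of these Mdh2 alone fell more than 2-fold (6.81% of all genes). The median log2 fold change of the 8 was -0.89 for empty and -0.74 for UTOpiA livers, against 0.04 and 0.05 for all genes tested. The 7 were Cs, Idh2, Idh3g, Dlst, Suclg1, Suclg2 and Mdh2, and the 6 were the same without Suclg2. These counts depended on the scale. With libraries scaled by their totals alone, 3 of the 8 fell in the empty group and 4 with UTOpiA (8.37% and 6.81% of all genes). None of the 8 passed the test between UTOpiA and empty livers.

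Mdh2, which closes the cycle, had the highest level of the members and showed the largest fall among the 8. It measured 421, 428 and 360 normalised CPM in the normal livers, 138, 130 and 139 in the empty livers and 175, 117 and 220 in the UTOpiA livers (chr12:23941448-23954431, − strand, build rn6). Every ACLF liver was below every normal liver, and the UTOpiA livers spread over a wider range that took in the empty ones. The log2 fold change was -1.57 ± 0.23 (SE, adjusted p = 0.000709, edgeR) for empty livers and -1.24 ± 0.23 (adjusted p = 0.00306) for UTOpiA livers. Leaving out 1 library at a time kept both calls.

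Dlst encodes the E2 core of the oxoglutarate dehydrogenase complex, and Ogdh its E1 subunit. Dlst measured 234, 219 and 217 normalised CPM in normal livers, 84.5, 114 and 88.2 in empty livers and 130, 93.6 and 132 in UTOpiA livers (chr6:108936664-108959803, + strand). Its log2 fold change was -1.23 ± 0.19 (SE, adjusted p = 0.000869, edgeR) for empty livers and -0.91 ± 0.19 (adjusted p = 0.00492) for UTOpiA livers. Both ACLF groups lay well below the lowest normal liver.
The row matched to Ogdh (chr14:86414949-86613327, + strand) measured 66.3, 73.6 and 62.2 normalised CPM in normal livers, 29.2, 31.6 and 21.6 in empty livers and 23.99, 26.5 and 27.7 in UTOpiA livers. It fell by 1.30 ± 0.16 on the log2 scale with the empty circuit (SE, adjusted p = 0.000294, edgeR) and fell by 1.37 ± 0.16 with UTOpiA (adjusted p = 0.000358). This row overlaps 3 other annotated genes, of which LOC103693776 is on the same strand, and none of the 3 had more than 70 counts in a library.

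Suclg1, the subunit common to both forms of succinyl-CoA ligase, fell more than Suclg2, its GTP-forming partner. Suclg1 measured 298, 312 and 311 normalised CPM in normal livers, 139, 135 and 123 in empty livers and 181, 126 and 174 in UTOpiA livers (chr4:101180404-101210746, + strand). The empty livers lay within a narrow band well below the normal ones, and its log2 fold change was -1.22 ± 0.18 (SE, adjusted p = 0.000699, edgeR) there and -0.94 ± 0.18 (adjusted p = 0.00339) in the UTOpiA group.
Suclg2 measured 273, 268 and 261 normalised CPM in normal livers, 220, 138 and 136 in empty livers and 184, 157 and 238 in UTOpiA livers (chr4:127552101-127824970, − strand). Here 1 empty and 1 UTOpiA liver came nearer to the normal range than the others. The log2 fold change was -0.70 ± 0.24 (SE, adjusted p = 0.0337, edgeR) for empty livers and -0.47 ± 0.24 (adjusted p = 0.140) for UTOpiA livers. The call in the empty group was lost without any 1 of the 3 normal livers and without empty liver 2 or 3, with adjusted p between 0.0735 and 0.112, with at least 10 counts required in every library (adjusted p = 0.0535), and on TPM (adjusted p = 0.323, limma).

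Idh2, the mitochondrial NADP-dependent isocitrate dehydrogenase, measured 162, 119 and 140 normalised CPM in normal livers, 77.4, 70.8 and 67.5 in empty livers and 88.9, 84.2 and 86.3 in UTOpiA livers (chr1:141866283-141893705, − strand). It fell by 0.97 ± 0.15 on the log2 scale in empty livers (SE, adjusted p = 0.000855, edgeR) and fell by 0.70 ± 0.15 in UTOpiA livers (adjusted p = 0.00558). Idh2 was the 1 member of the 8 whose UTOpiA livers all lay above all empty livers (12.1% of all genes did not overlap between these groups, in either direction), with a log2 difference of 0.27 ± 0.15 (adjusted p = 0.569). On TPM the groups overlapped, with 78.4, 74.99 and 78.2 in the empty and 85.1, 94.6 and 65.1 in the UTOpiA livers. The gene overlaps Zfp710 on the opposite strand, which had at most 196 counts in a library.

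Cs makes the first committed product of the cycle, citrate. It measured 67.6, 70.2 and 69.2 normalised CPM in normal livers, 42.1, 44.6 and 39.8 in empty livers and 41.4, 47.8 and 42.9 in UTOpiA livers (chr7:2752680-2778963, + strand). The log2 fold changes were -0.71 ± 0.11 (SE, adjusted p = 0.00106, edgeR) and -0.65 ± 0.11 (adjusted p = 0.00233), and the ACLF groups shared 1 range below the normal one.

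The NAD-dependent isocitrate dehydrogenase is built of the catalytic subunit Idh3a with Idh3b and Idh3g, and its subunits did not move alike. Idh3g measured 47.8, 50.4 and 49.3 normalised CPM in normal livers, 28.7, 29.0 and 25.6 in empty livers and 26.8, 27.9 and 30.9 in UTOpiA livers (chrX:156999826-157008733, + strand). Relative to normal it fell by 0.82 ± 0.12 on the log2 scale in empty livers (SE, adjusted p = 0.000576, edgeR) and fell by 0.78 ± 0.12 in UTOpiA livers (adjusted p = 0.00106).
Idh3a measured 30.1, 43.2 and 38.1 normalised CPM in normal livers, 32.1, 36.4 and 38.0 in empty livers and 40.3, 38.3 and 33.4 in UTOpiA livers (chr8:59164572-59183908, + strand). All 3 groups shared 1 range, and the log2 differences from normal were -0.07 ± 0.16 (SE, adjusted p = 0.751, edgeR) for empty and 0.01 ± 0.16 (adjusted p = 0.971) for UTOpiA livers. On TPM the sign in the empty group turned, to 0.45 (adjusted p = 0.128, limma), while the median of all genes moved to 0.44, so on both scales Idh3a lay close to the median gene.

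**Figure D1:**
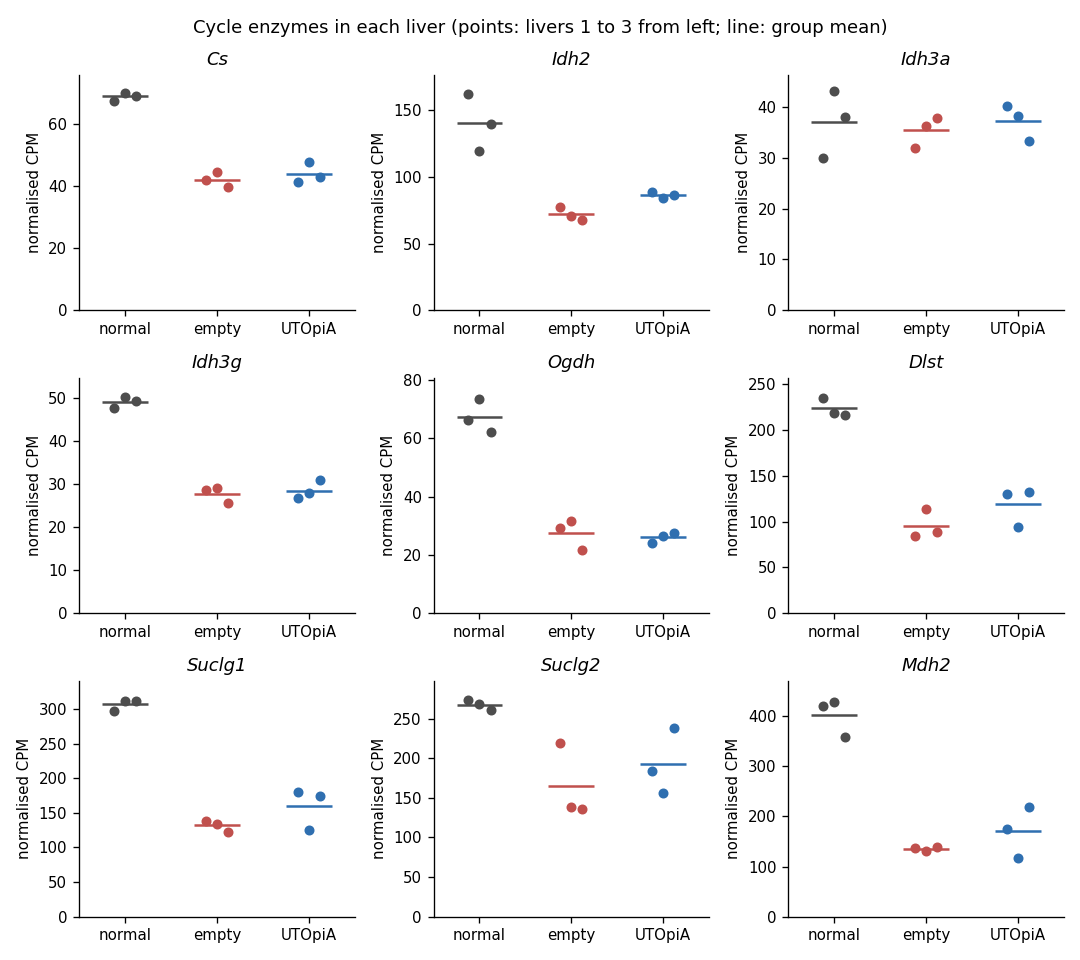
Normalised CPM (TMM, linear axis from 0) of the 8 members and of the row matched to Ogdh in each of the 9 livers, with 1 point per liver and a line at the group mean. In every panel but that of Idh3a the 3 normal livers lie above all 6 ACLF livers, and the empty and UTOpiA livers overlap in every panel but that of Idh2.

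Counted by groups that do not overlap, 7 of the 8 members were lower in all empty livers than in all normal livers on normalised CPM (28.7% of all genes were), and 7 of 8 were lower in all UTOpiA livers (26.1% of all genes). On TPM, 6 of 8 were lower in all empty livers, against 12.8% of all genes, and 5 of 8 in all UTOpiA livers (13.4% of all genes), where Cs, Idh2 and Idh3a overlapped the normal range. An exact two-sided permutation test of a single gene's TPM, 3 livers against 3, cannot give a p below 0.1, and the lowest Benjamini-Hochberg adjusted p over the 27 tests was 0.208.

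The size of the fall depended on the scale. With library totals alone, the median log2 change of all genes in the empty group was 0.60, and with log2(TPM + 1) it was 0.44, against 0.04 after TMM. The median of the 8 members then was -0.34 and -0.37, a difference of -0.94 and -0.80 from the median gene, against -0.94 after TMM. On log2(TPM + 1) without a filter on low values this difference was -0.62 in the empty group, and with UTOpiA it was -0.57 against -0.80 after TMM. On either of the first pair of scales Dlst, Suclg1 and Mdh2 still fell in the empty group, where 8.37% of all genes fell with library totals and 9.58% on log2(TPM + 1), while Cs, Idh2, Idh3g and Suclg2 kept a lower mean without passing the test (adjusted p 0.0676 to 0.487). In the UTOpiA group Idh3g, Dlst, Suclg1 and Mdh2 fell on both scales (6.81% and 7.74% of all genes). Mdh2 was the 1 member still more than 2-fold lower in the empty group, at -1.04 on log2(TPM + 1), where 5.18% of all genes were called more than 2-fold lower, and at -1.01 with library totals (4.84%).

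**Figure D2:**
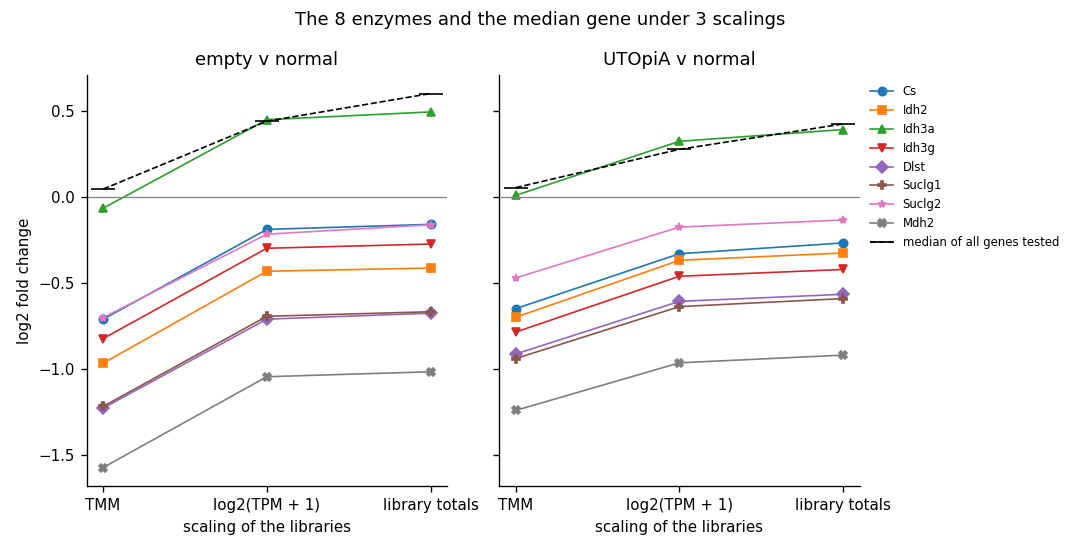
Log2 fold change against normal liver (vertical axis) of each of the 8 members under 3 scalings of the libraries (horizontal axis), for the empty and the UTOpiA group, with the median of all genes tested as a dashed line. All lines shift up together from TMM to TPM and library totals, and Idh3a stays close to the median gene while the other 7 stay below it.

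The log2 differences of the 8 between the ACLF groups, UTOpiA minus empty, were all positive on normalised CPM, from 0.04 ± 0.12 (SE) for Idh3g to 0.33 ± 0.23 for Mdh2, with a median of 0.25 against 0.00 for all genes. This median was 0.13 without UTOpiA liver 3 and 0.33 without UTOpiA liver 2, where the difference of Mdh2 was 0.54 ± 0.18 (adjusted p = 0.172, edgeR). It was 0.049 on log2(TPM + 1) and 0.052 with library totals, and on those scales the median of all genes was -0.17 and -0.18. Over all 9 livers on normalised counts, the lowest adjusted p was 0.569 (edgeR), none of the 8 had an unadjusted p below 0.05, and DESeq2 and limma called none of the 8 either. Of all genes tested, 0.0% passed the adjusted threshold in edgeR and 10.3% had an unadjusted p below 0.05, while DESeq2 called 1.35%. On TPM and with library totals 3 of the 8 differences (Cs, Idh3a and Idh3g) were negative. UTOpiA liver 2 had the lowest normalised CPM of its group for Idh2, Dlst, Suclg1, Suclg2 and Mdh2 and the highest for Cs, an order that turned on TPM, where it was the highest of its group for Idh2 (94.6) and not the lowest for Dlst or Suclg1. On both scales it lay within or below the range of the empty livers for Dlst, Suclg1, Suclg2 and Mdh2.

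Within a liver the levels of the members kept most of their order but not all of it, and this order does not depend on how libraries are scaled. In normal liver the mean TPM was 438 ± 45.8 (SD, n = 3) for Mdh2, 197 ± 6.43 for Suclg1, 173 ± 5.56 for Suclg2, 115 ± 5.09 for Dlst, 105 ± 15.2 for Idh2, 66.0 ± 1.91 for Cs, 52.4 ± 1.92 for Idh3g, 27.0 ± 2.70 for Ogdh and 21.7 ± 4.04 for Idh3a. Of these neighbours only Dlst and Idh2, and Ogdh and Idh3a, overlapped in their livers. In the empty group the order ran Mdh2 (212 ± 18.5), Suclg2 (151 ± 35.4), Suclg1 (122 ± 1.03), Idh2 (77.2 ± 1.89), Dlst (70.6 ± 11.95), Cs (57.8 ± 3.08), Idh3g (42.4 ± 1.19), Idh3a (29.8 ± 4.50) and Ogdh (15.6 ± 2.23). Idh2 and Dlst, and Dlst and Cs, overlapped there. The UTOpiA group had the same order as the empty group, with Mdh2 at 225 ± 29.4, Suclg2 at 153 ± 1.97 and Suclg1 at 127 ± 18.8, and Idh2 with Dlst, Cs with Idh3g and Idh3g with Idh3a overlapped. Suclg2 had thus passed Suclg1, and Idh3a had passed Ogdh, in both ACLF groups.

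Between enzymes that share a complex, a substrate or a reaction, 6 ratios were compared on TPM within each liver, where the scale of the library cancels. Idh3a per Idh3g was 0.345, 0.469 and 0.423 in normal livers, 0.610, 0.685 and 0.811 in empty livers and 0.823, 0.752 and 0.591 in UTOpiA livers. Both ACLF groups lay wholly above the normal livers, 1.71-fold and 1.75-fold higher on geometric means. Suclg2 per Suclg1 was 0.922, 0.864 and 0.841 in normal livers, 1.59, 1.03 and 1.11 in empty livers and 1.02, 1.25 and 1.38 in UTOpiA livers. The GTP-forming subunit was thus below its partner in each normal liver and above it in each ACLF liver, by 1.39-fold and 1.38-fold relative to normal.
Suclg2 per Sucla2, the GTP-forming over the ATP-forming subunit, was 1.68, 1.54 and 1.46 in normal livers, 3.43, 1.73 and 2.20 in empty livers and 2.28, 2.65 and 2.75 in UTOpiA livers, which is 1.51-fold and 1.64-fold higher, with no overlap in either case. Idh2 per Idh3a was 6.93, 3.55 and 4.73 in normal livers, 3.11, 2.51 and 2.29 in empty livers and 2.84, 2.83 and 3.33 in UTOpiA livers. This ratio of the NADP- to the NAD-dependent enzyme was 0.535 and 0.612 of normal, again without overlap.
Mdh2 per Mdh1, its cytosolic counterpart, overlapped between all groups, with log2 differences of 0.03 and -0.03 from normal. Ogdh per Dlst overlapped between empty and normal livers and was lower in the UTOpiA livers than in the normal ones (0.143, 0.219 and 0.163 against 0.220, 0.261 and 0.223). These groups barely parted, with 0.2192 as the highest UTOpiA and 0.2195 as the lowest normal value. Each ratio whose groups were apart had an exact permutation p of 0.1, the smallest that 3 livers against 3 allow, and an adjusted p of 0.2 over the 18 tests. No ratio separated the UTOpiA from the empty livers.

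**Figure D3:**
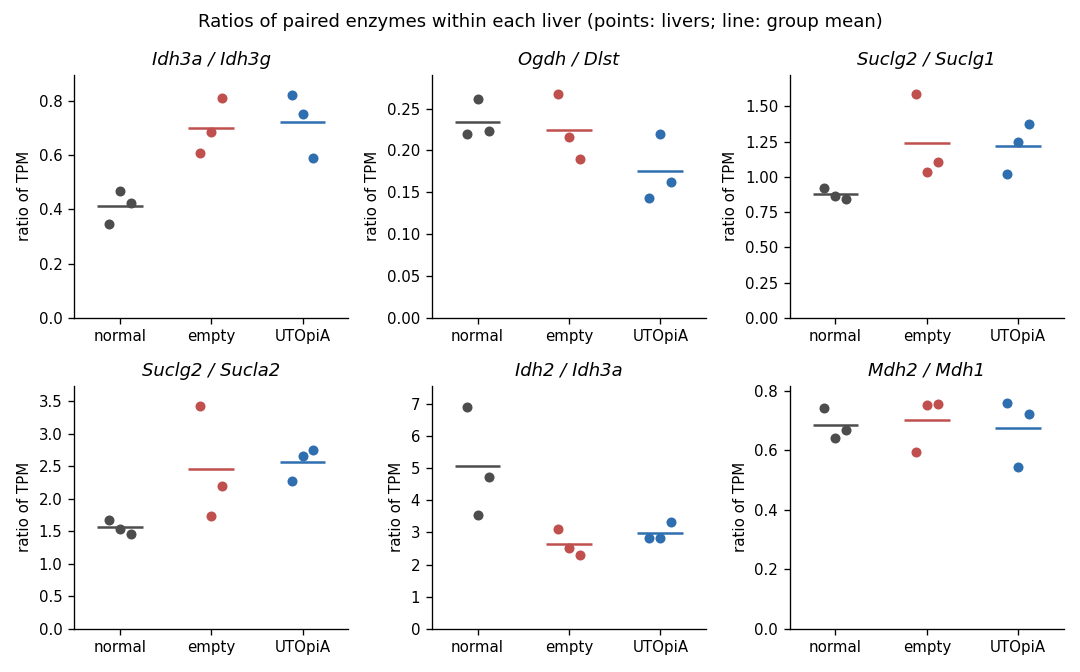
Ratios of TPM between paired enzymes (linear axes from 0), with 1 point per liver and a line at the group mean. Idh3a / Idh3g, Suclg2 / Suclg1 and Suclg2 / Sucla2 are higher, and Idh2 / Idh3a lower, in all 6 ACLF livers than in the normal livers, while Mdh2 / Mdh1 overlaps between the groups.

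Of 8 other mitochondrial genes of the cycle, all 8 fell in both ACLF groups, 6 of them more than 2-fold with the empty circuit and 5 with UTOpiA. Their median log2 fold changes were -1.26 and -1.13. Sdha, the flavoprotein subunit of succinate dehydrogenase, fell by 1.78 ± 0.21 (SE, adjusted p = 0.000261, edgeR) in the empty group, the largest fall of these 17 enzymes. Sdhb, its iron-sulphur subunit, fell by 1.41 ± 0.16, and its membrane anchors fell by 0.85 ± 0.14 (Sdhc) and fell by 1.15 ± 0.15 (Sdhd).
The third subunit of the NAD-dependent isocitrate dehydrogenase, Idh3b, fell by 1.33 ± 0.15 (adjusted p = 0.000228, edgeR), from 161, 180 and 185 normalised CPM to 59.0, 78.9 and 71.1. Idh3a was therefore the 1 enzyme of the 17 that did not pass the test in the empty group. Fumarase, Fh, fell by 0.94 ± 0.23. Dld, the E3 subunit shared with pyruvate dehydrogenase, fell by 1.20 ± 0.17, and Sucla2 fell by 1.33 ± 0.18. On log2(TPM + 1), Sdhc and Fh no longer passed the test in either ACLF group. The call of Fh with UTOpiA was also lost under the replicate block (adjusted p = 0.0592), without any 1 of the 3 normal livers (0.0583 to 0.0724) and without UTOpiA liver 2 (0.0749).

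**Figure D4:**
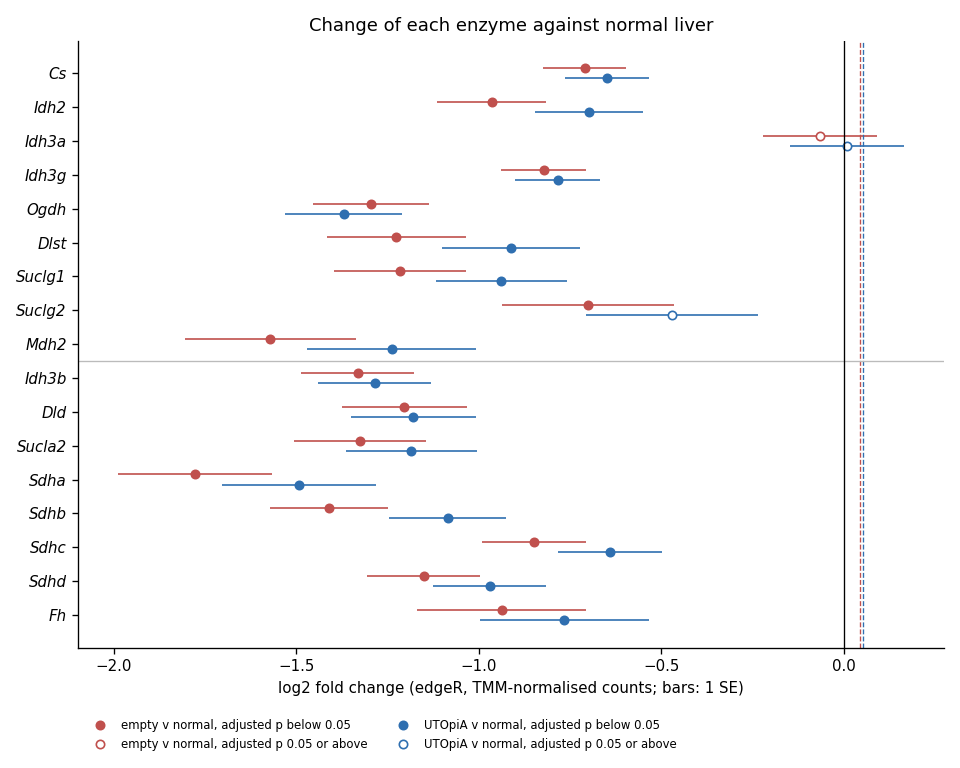
Log2 fold change with its SE (horizontal axis, TMM-normalised counts, edgeR) for the 8 members and Ogdh above the line and 8 other mitochondrial enzymes of the cycle below it, in the empty and UTOpiA groups against normal. Open points did not pass the test, and dashed lines mark the median of all genes; open points are Idh3a in both groups and Suclg2 with UTOpiA, and the filled points of all other enzymes lie left of 0.

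Genes that bring carbon to the cycle or take it away mostly fell as well. Of 12 genes of pyruvate entry, 8 fell and 2 rose in the empty group, where 26.9% of all genes rose, and likewise 8 and 2 in the UTOpiA group (background 23.3%). Dlat, the E2 of pyruvate dehydrogenase, fell by 2.34 ± 0.17 (SE, adjusted p = 4.71e-05, edgeR) in the empty group. Among the kinases that switch that complex off, Pdk1 fell by 2.43 and Pdk2 fell by 2.37 on the log2 scale, while Pdk3 rose by 3.47 ± 0.37 (adjusted p = 0.000163). The fourth kinase, Pdk4, was at 0.24 ± 0.35 (adjusted p = 0.598) in the empty group. With UTOpiA it fell by 1.29 ± 0.36 (adjusted p = 0.0199, lost without normal liver 2 or UTOpiA liver 1 or 2 and on log2(TPM + 1)). Pdk4 measured 47.9, 67.3 and 30.6 normalised CPM in normal, 85.7, 48.6 and 37.9 in empty and 15.6, 20.8 and 23.1 in UTOpiA livers, so all UTOpiA livers lay below all empty ones, by -1.53 ± 0.36 on the log2 scale (adjusted p = 0.270, edgeR). The phosphatase Pdp1, which switches it on, rose by 1.68 ± 0.41 (adjusted p = 0.00818). With UTOpiA 1 gene of this list rose, in place of 2, without normal liver 1 or 2 or UTOpiA liver 2, on log2(TPM + 1) without a filter and with at least 10 counts in every library.
Of 12 genes of anaplerosis and cataplerosis, the reactions that fill and drain the cycle, 9 fell and 2 rose with the empty circuit, and with UTOpiA 6 fell and 2 rose. The 6 became 3 without normal liver 1 or 3, on log2(TPM + 1) and with library totals. Pck1, which draws oxaloacetate into gluconeogenesis, rose by 3.10 ± 0.55 (adjusted p = 0.00181, edgeR) and Me2, a mitochondrial malic enzyme, rose by 2.10 ± 0.27, while Gls2 fell by 2.52 ± 0.63 and Pcca, of propionate entry, fell by 1.81 ± 0.35.
All 5 cytosolic counterparts fell in both groups. Acly, which splits exported citrate for fatty acid synthesis, fell by 4.38 ± 0.46 and the NADP-linked malic enzyme Me1 fell by 4.57 ± 0.39 in empty livers. Of the carriers that move cycle intermediates across the inner membrane, 4 of 5 tested fell in each group, but with UTOpiA 2 of 5 did without any 1 of the normal livers or UTOpiA liver 2 or 3, under the replicate block, on log2(TPM + 1) and with library totals. In empty livers the aspartate-glutamate carrier Slc25a13 fell by 1.83 ± 0.28 and the citrate carrier Slc25a1 fell by 1.52 ± 0.32.

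Of 14 nuclear respiratory chain subunits, 13 fell with the empty circuit (median -1.26) and 11 with UTOpiA (median -1.02). In empty livers Ndufs1 of complex I fell by 1.93 ± 0.18 and Uqcrc2 of complex III fell by 1.55 ± 0.19. Counts from the genes of the mitochondrial genome made up 5.91% to 8.69% of all counts, with overlapping ranges in the 3 groups. Of 14 genes of mitochondrial fatty acid oxidation, a source of acetyl-CoA, 9 fell with the empty circuit and 6 with UTOpiA, with Acadm at -1.70 ± 0.25 and Acads at -1.68 ± 0.26 in empty livers. Of 9 genes of mitochondrial pores, import and chaperones, 7 fell in each group. On log2(TPM + 1) 3 fell in the empty group and 4 with UTOpiA, and with library totals 3 fell in each, and on both scales the pore gene Vdac2 turned positive in the empty group (0.07 and 0.11, against -0.44). Tomm20, a receptor of protein import, rose by 0.47 ± 0.13 in the empty group (adjusted p = 0.0126, edgeR, and 0.0515 without normal liver 1), while Hspa9 fell by 1.42 ± 0.19 and Tomm70 fell by 1.35 ± 0.17.
Of 8 regulators of mitochondrial genes, 3 fell in the empty group. The coactivator Ppargc1b fell by 1.71 ± 0.38, the deacetylase Sirt3 fell by 0.93 ± 0.33 and the receptor Esrra fell by 0.73 ± 0.15. Sirt3 measured 28.3, 9.55 and 25.4 normalised CPM in the empty livers against 39.2 to 40.95 in the normal ones. Without empty liver 2 it fell by 0.58 (adjusted p = 0.0113), and its call (adjusted p = 0.0437, edgeR) was lost without any 1 of the other livers but empty liver 1 (0.0552 to 0.0949). The calls of Ppargc1b, Sirt3 and Esrra in the empty group were also lost on log2(TPM + 1) and with library totals. With UTOpiA 4 fell (16.2% of all genes did). The count was 2 without normal liver 2, with at least 10 counts in every library, on log2(TPM + 1) and with library totals. Nrf1 rose in that group by 0.48 ± 0.17 (adjusted p = 0.0477), a call lost in DESeq2 (adjusted p = 0.0545) and without any 1 of the livers but empty liver 2 and UTOpiA liver 3 (0.0569 to 0.150). No gene of these lists passed edgeR's test between UTOpiA and empty livers over all 9 libraries. DESeq2 called 4 there. Pdk4 (log2 -1.55, adjusted p = 0.00648) and Cpt1a, which admits fatty acids to mitochondria (-1.86, adjusted p = 0.0248), were lower with UTOpiA. Cpt1a measured 556.8, 90.13 and 375.3 normalised CPM in the empty livers and 80.03, 109.9 and 95.15 in the UTOpiA livers. Empty liver 2 thus lay within the UTOpiA range, and edgeR called Cpt1a only with that liver left out (adjusted p = 0.0240). Mpc1, of the pyruvate carrier (0.70, adjusted p = 0.0396), and Echs1, of fatty acid oxidation (3.24, adjusted p = 0.0490), were higher, and Echs1 had 425 counts in UTOpiA liver 2 against 11 and 20 in the other UTOpiA livers.
Among relatives of the cycle enzymes, Ogdhl, a paralogue of Ogdh, rose by 3.25 ± 0.51 (adjusted p = 0.000949, edgeR) from 2, 4 and 2 counts in normal livers to 45, 44 and 38 in empty livers, and Dhtkd1, the oxoadipate dehydrogenase, fell by 2.35 ± 0.52. Acod1, which turns the cycle intermediate cis-aconitate into itaconate in macrophages, had 0 counts in the normal livers, 260, 29 and 331 in the empty livers and 26, 93 and 0 in the UTOpiA livers (edgeR adjusted p = 0.0161 for empty and 0.0655 for UTOpiA against normal, and 0.0628 for empty with no filter on counts). Up to 3 counts per library are compatible with a count of 0, so no fold is given.

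**Figure D5:**
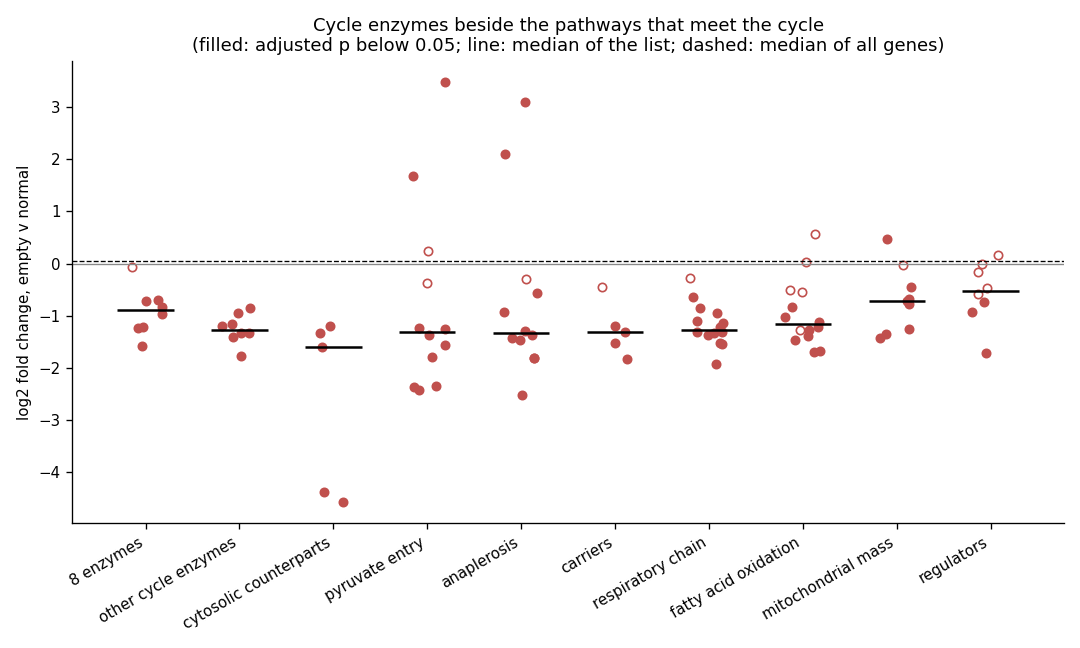
Log2 fold change in the empty group against normal (vertical axis, edgeR) of each gene of the 8 members and of 9 pathway lists (the 3 relatives of the cycle enzymes, described above, are not drawn), with the median of each list as a solid line and that of all genes as a dashed line. The median of each of the 10 lists drawn lies below 0, from -0.52 for the regulators to -1.59 for the cytosolic counterparts (that of the regulators was 0.00066 on log2(TPM + 1) and 0.033 with library totals), and the highest points are Pdk3 and Pck1.

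Markers of the cell types in a liver also changed, those of hepatocytes mostly downwards and those of most other types upwards. Of 10 hepatocyte markers 7 fell with the empty circuit and 6 with UTOpiA, and their summed TPM ranged from 170900 to 186700 in normal livers, 43560 to 82140 in empty livers and 50970 to 78750 in UTOpiA livers. Per liver, the median log2 level of the hepatocyte markers against normal was -1.81, -1.002 and -1.75 in the 3 empty livers and -0.78, -1.35 and -0.94 in the 3 UTOpiA livers, beside -0.81, -0.96 and -1.01 and then -0.75, -0.79 and -0.69 for the 8 enzymes. The markers and the enzymes did not rank the livers alike, and none of the 10 hepatocyte markers was at 0 in normal liver.
All 6 cholangiocyte markers rose in both groups (summed TPM 14.5 to 24.8 in normal, 304 to 610 in empty and 128 to 389 in UTOpiA livers), as did the 4 neutrophil markers that could be tested (summed TPM of all 8 from 2.26 to 5.92, 182 to 1092 and 173 to 501). Of the neutrophil markers, Cxcr2, Mpo and Elane were at 0 in the normal livers. Of 6 stellate cell markers 5 rose in each group (summed TPM 103 to 113, 518 to 822 and 416 to 746), and of 7 macrophage markers 5 rose in the empty and 4 in the UTOpiA group (227 to 262, 405 to 736 and 306 to 598). Of 5 endothelial markers 1 rose and 1 fell in the empty group, and 2 rose and 1 fell in the UTOpiA group (74.6 to 80.5, 64.4 to 114 and 69.5 to 80.1). Of 7 lymphocyte markers tested 3 and 4 rose (13.8 to 15.8, 57.6 to 96.0 and 30.9 to 95.7 for all 9), and of 6 proliferation genes 4 rose in each group (32.5 to 50.5, 67.1 to 111 and 51.4 to 93.4). The part of these shifts in the change of the cycle enzymes was not tested, and in bulk liver fewer hepatocytes and less RNA per hepatocyte cannot be told apart.

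Among the members, Idh3g and Idh2 followed the median profile of the 8 over the 9 livers most closely, with root-mean-square differences of 0.103 and 0.107 log2 units, and Idh3a least, with 0.441. Each of the 8 takes part in the median it is measured against, so some of this closeness is built in. Outside the cycle, the 5 genes nearest to that median profile were Plpbp (0.0551 log2 units), Ntpcr (0.0615), Nans (0.0672), Gtf3c1 (0.0703) and Spopl (0.0710). Their log2 fold changes in the empty group ran from -0.98 for Spopl to -0.88 for Nans. These nearest genes are a description over 9 libraries, and their likeness was not tested.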

How the data were processed

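RNA of 9 rat livers was sequenced with polyA selection. By the methods of the study, the authors trimmed reads with Cutadapt, aligned them with HISAT2 and made the counts with featureCounts from reads that map once. Those methods name a mouse genome, while the submitters' processing notes name Trimmomatic and the rat build rn6, and the coordinates and gene identifiers in the files are those of rat. Whether counting used strand is not given in the sources used here. Per the file headers, the authors deposited raw counts per gene and, in a second table, TPM.

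The main test was edgeR 4.0.16 under R 4.3.3, with filterByExpr by group, TMM normalisation, 1 mean per group over all 9 libraries, a robust quasi-likelihood fit and Benjamini-Hochberg adjustment over 14089 genes. Groups were taken from the sample titles. Single genes and ratios were compared on TPM by exact two-sided permutation tests (scipy 1.17.1). The tests were tried on simulated data first. The titles call the livers of a group biological replicates. Genes were named by a rule: the 9 enzymes, the other mitochondrial enzymes of the cycle, the genes of the ratios, at most 2 of the largest rises and 2 of the largest falls of each other list in the empty group at adjusted p below 0.05, and the 5 nearest profiles. Dlat, Esrra, Nrf1, Pdk4, Vdac2, Cpt1a, Mpc1, Echs1 and the promoter motif TCGCGAGA were added after values or sequences had been seen. Some genes of the lists are not reported here. The members and lists were chosen with earlier results of these data known. Same-numbered livers of different groups deviated from their group means with correlations of -0.183 to 0.0638, so the numbers were not taken as pairs. The alternatives were DESeq2 1.42.0, limma 3.58.1 on log2(TPM + 1) and log2(TPM + 0.1), other scalings and filters, 6 libraries in place of 9, the replicate number as a block, and each library left out.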

Additional observations from a re-analysis of the deposited data

How the results depend on the processing

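Counts of calls at more than 2-fold depended on scaling. On log2(TPM + 1), on log2(TPM + 0.1), on log2(TPM + 1) without a filter and with library totals only, 1.0 of the 8 members was called in the empty group and 0.0 with UTOpiA, and 1.0 of the 8 other cycle enzymes in each (on log2(TPM + 1) 5.18% of all genes were called in the empty group and 3.63% with UTOpiA, and with library totals 4.84% and 3.45%), since these scales raise the median gene. With no fold threshold the members called were 7.0 and 6.0, and the other enzymes 8.0 with UTOpiA. Of 81 calls against normal in the empty group and 72 with UTOpiA, over the members and the pathway lists, 21 and 19 were lost on log2(TPM + 1), and 21 and 19 with library totals. No setting called a member between UTOpiA and empty livers. Leaving out 1 library gave 1.0 to 2.0 members called with UTOpiA, the second being Suclg1 without UTOpiA liver 1 (log2 -1.04) or 3 (log2 -1.004), and 3.0 to 4.0 in the empty group. Of all genes, 5.06% to 7.63% were then called more than 2-fold lower with UTOpiA and 9.35% to 12.3% in the empty group. The replicate block, fitted although the numbers did not pair the livers, gave 3.0, 1.0 and 0.0 members called in the 3 comparisons, as without it. Under it 10.9%, 6.37% and 0% of all genes were called more than 2-fold lower.

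Signs of members and ratios turned where the difference had not passed a test. UTOpiA minus empty was -0.1412, -0.144, -0.1412 and -0.1078 for Cs on log2(TPM + 1), log2(TPM + 0.1), log2(TPM + 1) without a filter and library totals, and in that order -0.1254, -0.1304, -0.1254 and -0.1022 for Idh3a and -0.1625, -0.1664, -0.1625 and -0.1474 for Idh3g. Idh3a in the empty group was 0.4477, 0.4641, 0.4477 and 0.4926 on these scales and 0.0385 with at least 10 counts in every library. With 1 library left out, Idh3a ran from -0.2018 to 0.0496 in the empty group and from -0.1247 to 0.1268 with UTOpiA, and Idh3g from -0.0222 to 0.0726 between UTOpiA and empty livers. Log2 ratios then ran from -0.0655 to 0.1736 (Idh3a/Idh3g), -0.1367 to 0.1758 (Suclg2/Suclg1), -0.106 to 0.3874 (Suclg2/Sucla2) and -0.1747 to 0.0876 (Mdh2/Mdh1) between UTOpiA and empty livers. Against normal they ran from -0.2072 to 0.0394 (Ogdh/Dlst, empty), -0.0295 to 0.1443 (Mdh2/Mdh1, empty) and -0.1239 to 0.1178 (Mdh2/Mdh1, UTOpiA). The ratios whose groups lay apart kept their sign in each of the 7 settings run for a ratio, which were raw counts + 0.5 and each of the 6 livers compared left out.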
